A study of Mus musculus with 12 samples.

Results

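A set of 10 genes of intestinal fat export was followed in murine jejunal enteroids, of 18929 genes listed in either deposited count table. They were chosen by name, as the apolipoprotein genes Apoa1, Apoa4, Apoc2, Apoc3 and Apob, the assembly gene Mttp, the fatty acid binding protein genes Fabp1 and Fabp2, and the triglyceride synthesis genes Mogat2 and Dgat1, and all 10 were present in both tables. The 12 RNA-Seq libraries comprised 4 control libraries, 4 libraries from Hdac1-deficient enteroids and 4 from Hdac2-deficient enteroids. The paper names the control villin-Cre in its results and wild-type in its methods, so whether control enteroids carried Cre is not settled here. In the mutants a floxed Hdac1 or Hdac2 gene had been removed by Cre expressed from the villin promoter, which is active in the intestinal epithelium. The mice were of a mixed C57BL/6 J, 129SV and CD1 background, and their age is not given in the sources used here. All cultures were grown for 5 days in ENR medium, which holds EGF, Noggin and R-Spondin. The methods describe crypts taken from 1 mouse per genotype, so the 4 libraries of a group may be technical repeats of 1 line, p-values then cover only the spread between these libraries, and the genotype cannot be told apart from the mouse and its line.

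Counts on genes totalled 20693200 to 30658628 per library. Hdac1-deficient enteroids had 4.23 ± 0.841 CPM of Hdac1 (counts scaled to the library size; SD, n = 4), against 90.5 ± 2.87 CPM in control, and Hdac2 fell from 137 ± 4.39 to 75.9 ± 2.84 CPM in Hdac2-deficient enteroids, so that part of its RNA was still counted there. Enterocyte markers were present in every group, whereas 8 of 12 stromal, endothelial and blood cell markers (Col1a2, Col3a1, Dcn, Cdh5, Cd3e, Cd79a, Hbb-bs and Acta2) were at 0 or not in both tables, and the other 4 summed to at most 0.727 CPM in any library.

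Enterocytes pack dietary fat into chylomicrons, large lipoprotein particles that leave the cell for the lymph. Absorbed fatty acids are carried in the cytosol by the fatty acid binding proteins and are joined to monoacylglycerol by MOGAT2 and then by DGAT1 to give triglyceride. MTTP, the microsomal triglyceride transfer protein, loads this lipid onto apolipoprotein B in the endoplasmic reticulum, and the smaller apolipoproteins A-I, A-IV, C-II and C-III join the particle surface. In the intestine these genes are characteristic of villus enterocytes rather than of crypt cells.

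The most abundant of the 10 transcripts per kilobase of exon in control enteroids was Fabp1, at 3071 ± 281 CPM per kb (SD, n = 4). It was followed by Apoa4 at 1140.4 ± 107, Apoa1 at 599.5 ± 40.8, Fabp2 at 387 ± 27.9 and Mttp at 174 ± 1.24 CPM per kb. The lower ranks were held by Apoc3 (149 ± 10), Apoc2 (131 ± 8.24), Dgat1 (88.8 ± 2.9), Mogat2 (82.5 ± 2.51) and Apob (51.5 ± 6.32 CPM per kb). No pair of neighbours in this order overlapped among the control libraries. In Hdac1-deficient enteroids the order was the same, with Dgat1 and Mogat2, and Mogat2 and Apob, overlapping between libraries. In Hdac2-deficient enteroids Apoc2 (185 ± 7.8 CPM per kb) ranked above Apoc3 (165 ± 9.11), but these neighbours overlapped, as did Apoa4 with Apoa1 and Apoc3 with Dgat1.

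All 10 genes were higher than control in both mutants. Compared with control, 10 of 10 rose in Hdac1-deficient enteroids with an adjusted p no larger than 0.05 (edgeR quasi-likelihood F test, Benjamini-Hochberg adjustment over all tested genes), against 32.7% of the 14246 tested genes. Likewise, 10 of 10 rose in Hdac2-deficient enteroids, against 31.4% of 14007 tested genes. None of the 10 fell, against 31.9% and 30.9% of all genes in the fits. The 10 genes were chosen with earlier results of these data known, so these contrasts with all tested genes are descriptions and not independent support. As a median, the 10 genes changed on the log2 scale by 0.74 (range 0.44 to 1.74) in Hdac1-deficient and 0.62 (range 0.16 to 1.48) in Hdac2-deficient enteroids, beside -0.004 over all tested genes in each comparison. More than 2-fold increases were met by 3 genes in Hdac1-deficient enteroids (Apoa1, Apoa4 and Apob; 6.87% of all tested genes) and by 2 in Hdac2-deficient enteroids (Apoa1 and Apob; 5.45%). Mutant libraries lay wholly above the control libraries for 10 of 10 genes in Hdac1-deficient enteroids (28.4% of all genes) and for 9 of 10 in Hdac2-deficient enteroids (27.9%), the exception being Apoc3. Both comparisons use the same 4 control libraries. Together the 10 genes took 0.738% ± 0.0341 of all counts in control enteroids, 1.51% ± 0.0497 after loss of Hdac1 and 1.24% ± 0.0602 after loss of Hdac2 (SD, n = 4). In bulk RNA, more cells of a type and more RNA per cell cannot be told apart.

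**Figure D1:**
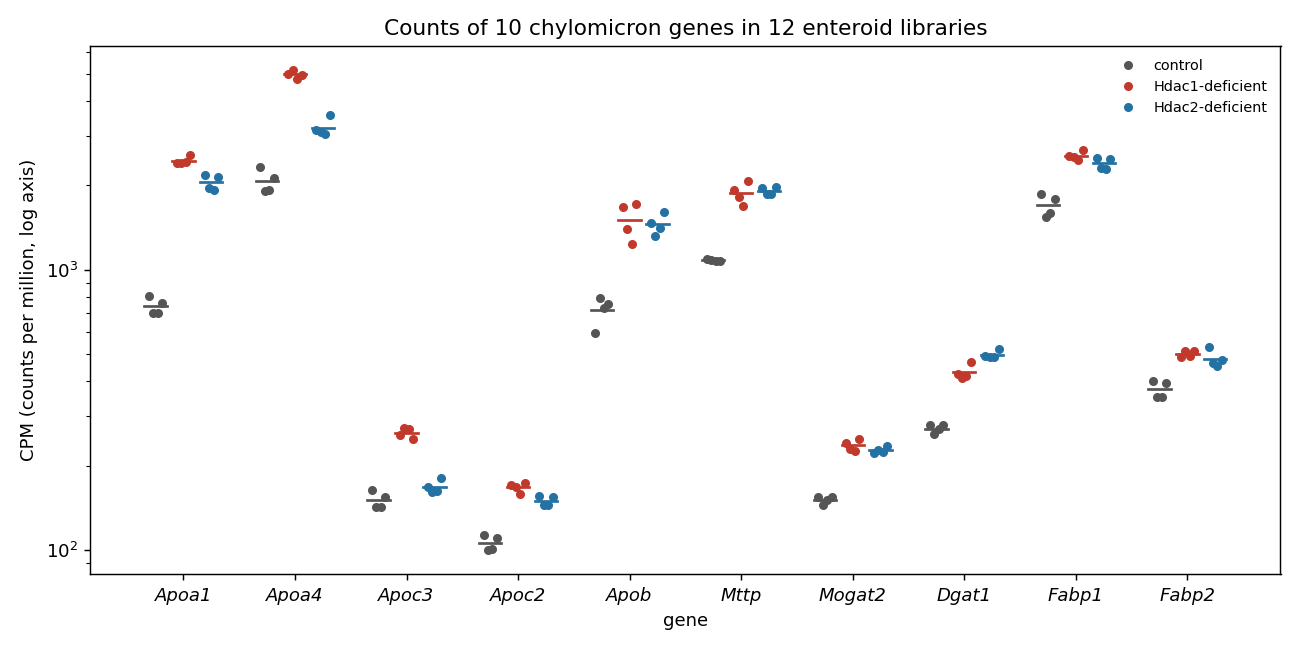
CPM (log axis) of the 10 genes in each library, with points for the 4 libraries of control, Hdac1-deficient and Hdac2-deficient enteroids and a line at each group mean. Apart from Apoc3 in Hdac2-deficient enteroids, whose lowest library (161 CPM) lies under the highest control library (163 CPM), each mutant library lies above the control libraries.

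Apolipoprotein A-I and A-IV are surface proteins of the chylomicron, and Apoa1 and Apoa4 belong with Apoc3 to 1 gene cluster on chromosome 9. In GENCODE M21 (GRCm38) Apoa1 (ENSMUSG00000032083) lies at chr9:46228580-46230466 on the plus strand, Apoc3 (ENSMUSG00000032081) at chr9:46232933-46235636 on the minus strand and Apoa4 (ENSMUSG00000032080) at chr9:46240696-46243459 on the plus strand, all within 14880 bp. The promoter windows of 4 genes are shown because Apoa1, Apoa4 and Apob had the largest increases in Hdac1-deficient enteroids and Fabp1 was the most abundant transcript. Each is taken from RefSeq (GRCm38.p6), runs 5′ to 3′ on the gene's strand and covers 250 bases before and 50 after the start site. Capitals mark matches, on either strand, to 5 short motifs, namely a TATA box, the core letters of HNF4 and DR1 sites, a nuclear receptor half-site, an HNF1 half-site and a GATA site. In these 4 windows no match overlapped that of another motif. The start sites of Apoa1, Apoa4, Apob and Fabp1 lie 50, 148, 29 and 52 bases inside the GENCODE gene. That of Mttp lies 1550 bases inside, so its window is counted among the matches but is not shown.
Apoa1, chr9:46228380-46228679, plus strand: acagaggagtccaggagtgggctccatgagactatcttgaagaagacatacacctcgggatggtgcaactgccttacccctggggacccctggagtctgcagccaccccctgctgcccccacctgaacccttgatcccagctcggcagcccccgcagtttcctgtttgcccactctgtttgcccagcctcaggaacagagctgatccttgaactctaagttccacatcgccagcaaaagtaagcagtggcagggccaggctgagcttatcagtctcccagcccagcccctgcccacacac
Apoa4, chr9:46240594-46240893, plus strand: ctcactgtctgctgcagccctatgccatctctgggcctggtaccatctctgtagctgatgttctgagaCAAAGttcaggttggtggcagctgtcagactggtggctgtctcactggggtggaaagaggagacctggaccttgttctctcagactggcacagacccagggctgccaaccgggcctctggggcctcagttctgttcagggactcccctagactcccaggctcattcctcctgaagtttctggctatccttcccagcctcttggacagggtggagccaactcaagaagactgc
Apob, chr12:7977427-7977726, plus strand: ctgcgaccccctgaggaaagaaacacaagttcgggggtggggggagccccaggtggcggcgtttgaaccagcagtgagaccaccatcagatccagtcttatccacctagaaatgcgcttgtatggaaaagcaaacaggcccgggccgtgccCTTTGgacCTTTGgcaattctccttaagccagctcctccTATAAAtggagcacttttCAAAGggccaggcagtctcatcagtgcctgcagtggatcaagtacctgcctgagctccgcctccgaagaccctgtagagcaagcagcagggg
Fabp1, chr6:71199629-71199928, plus strand: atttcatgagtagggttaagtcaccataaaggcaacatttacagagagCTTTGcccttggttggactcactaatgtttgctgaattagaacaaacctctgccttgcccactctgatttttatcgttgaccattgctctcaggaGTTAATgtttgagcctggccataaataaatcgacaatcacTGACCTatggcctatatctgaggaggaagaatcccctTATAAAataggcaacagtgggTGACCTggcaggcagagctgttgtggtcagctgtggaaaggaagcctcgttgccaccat

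Windows were matched for 7 of the 10 genes (also Mttp, Apoc2 and Fabp2). TATAAA, the TATA box, was found in Apob, starting 60 bases before the start site, and in Fabp1, 30 bases before it, so in 2 of 7 windows, against 13.6% of all 32851 promoter windows. CAAAG, the core of HNF4 and DR1 sites, was present in 6 of 7 windows (all but Apoa1, and including the displaced Mttp window) and in 53.9% of all windows. It occurred 3 times in the Apob window and 1 time in that of Apoa4. AGGTCA, the nuclear receptor half-site, was found in 2 of 7 windows, of Apoc2 and Fabp1 (16.3% of all). The HNF1 half-site, GTTAAT, was found in the same 2 (7.1% of all). The letters AGATAA, a form of the GATA site, were in 0 of 7 and in 11.2% of all windows. Other forms of that site were not searched, so their absence cannot be read from this count. The Apoa1 window held none of the 5 motifs, which says only that these letters are absent there.

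Apoa1 was measured at 805, 698, 703 and 758 CPM in the 4 control libraries. Hdac1-deficient libraries had 2399, 2409, 2429 and 2572 CPM, and Hdac2-deficient libraries 2180.2, 1962, 1929.9 and 2151 CPM. Every mutant library was thus well above every control library, and the lowest Hdac1-deficient library was above the highest Hdac2-deficient library. The log2 fold change was 1.74 ± 0.04 (SE) in Hdac1-deficient (adjusted p = 2.4e-17, edgeR) and 1.48 ± 0.05 in Hdac2-deficient enteroids (adjusted p = 3.0e-12, edgeR). These were the largest increases among the 10 genes in both mutants, at rank 435 of 14246 and rank 421 of 14007 tested genes ordered by fold change.

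Apoa4 had 2321, 1909.9, 1921 and 2127 CPM in control libraries. Its level was 4993, 5166, 4812 and 4958 CPM in Hdac1-deficient and 3155, 3094, 3056 and 3568 CPM in Hdac2-deficient libraries. The 3 groups did not overlap, with Hdac2-deficient enteroids between control and Hdac1-deficient enteroids. The log2 fold change was 1.28 ± 0.05 in Hdac1-deficient (2.43-fold, adjusted p = 5.9e-13, edgeR) and 0.65 ± 0.07 in Hdac2-deficient enteroids (1.57-fold, adjusted p = 3.3e-05, edgeR). Exons of Apoa4 share 632 bases with the antisense gene Gm10680, which had 100 to 1094 counts per library, or 0.117% to 0.83% of the Apoa4 count. The library kit keeps strand, but the strand setting of the counting is not given in the sources used here, so reads of the pair may be mixed. By qPCR, the paper reported increased Apoa4 expression in both mutants. The study's primer pair for Apoa4 is shown because it marks the stretch of the transcript that this PCR reads.
Apoa4 forward primer: ccaatgtggtgtgggattactt
Apoa4 reverse primer: agtgacatccgtcttctgaaac

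Both primers matched the 1815-base Apoa4 transcript 1 time, bounding 83 bases of exon 2 of 3 (chr9:46241501-46241583, GRCm38). This stretch lies outside Gm10680 (chr9:46242621-46243529) but within a second annotated gene on the minus strand, Gm47528 (chr9:46239841-46242032). Gm47528 shares 634 exon bases with Apoa4 and is not among the genes listed for either mutant.

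Apoc3 codes for apolipoprotein C-III, an inhibitor of lipoprotein lipase. It was at 163, 142, 142 and 155 CPM in control, at 257, 273, 269 and 249 CPM in Hdac1-deficient and at 168, 161, 162 and 181 CPM in Hdac2-deficient libraries. Hdac1-deficient libraries were all higher than the rest, whereas Hdac2-deficient libraries overlapped with control. Its log2 fold change was 0.81 ± 0.04 in Hdac1-deficient (adjusted p = 8.0e-12, edgeR) and 0.16 ± 0.05 in Hdac2-deficient enteroids (adjusted p = 0.0058, edgeR), the smallest change among the 10 genes.

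Apoc2 (ENSMUSG00000002992, chr7:19671579-19677941, minus strand) codes for apolipoprotein C-II, the activator of lipoprotein lipase. Its level was 113, 99.7, 101 and 110.4 CPM in control, 171, 167, 158 and 173 CPM in Hdac1-deficient and 156, 145, 144 and 155 CPM in Hdac2-deficient libraries. The 3 groups did not overlap. Its log2 fold change was 0.66 ± 0.04 after loss of Hdac1 and 0.51 ± 0.04 after loss of Hdac2 (adjusted p = 4.7e-11 and 1.6e-09, edgeR). Exons of Apoc2 share 646 bases with the overlapping gene Gm44805 on the same strand, which is not among the genes listed for either mutant. How the counting treats such reads is not given in the sources used here.

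Apob (ENSMUSG00000020609, chr12:7977648-8016835, plus strand) codes for apolipoprotein B, the scaffold of the chylomicron. Control libraries had 593, 795, 728 and 756 CPM, Hdac1-deficient libraries 1675, 1395, 1233 and 1712 CPM, and Hdac2-deficient libraries 1474, 1319, 1409 and 1608 CPM. All mutant libraries were above control, and the mutants overlapped with each other. Apob rose by 1.08 ± 0.14 (log2) in Hdac1-deficient (adjusted p = 3.8e-04, edgeR) and 1.03 ± 0.11 in Hdac2-deficient enteroids (adjusted p = 1.3e-04, edgeR). Its place above 2-fold rested on single libraries: without control replicate 1 the log2 values were 0.99 and 0.94, leaving 2 genes above 2-fold after loss of Hdac1 and 1 after loss of Hdac2. Without Hdac2-deficient replicate 4 its value there was 0.97, again leaving 1. Apob varied more between libraries than the other 9 genes, with a coefficient of variation of 12.3% in control libraries, 15.3% without Hdac1 and 8.39% without Hdac2. It is also the longest, with 13934 bases of exon. Control replicate 1, the lowest library for Apob, had a median log2 deviation of -0.118 over 1200 genes with at least 10 kb of exon and of 0.128 over 3059 genes under 2 kb, and the part of this imbalance in the Apob values was not tested.

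Mttp (ENSMUSG00000028158, chr3:138089854-138144968, minus strand) showed 1090.0, 1079.8, 1071 and 1077 CPM in control, a narrow range. Its level was 1932, 1815, 1692 and 2078 CPM in Hdac1-deficient and 1954, 1857, 1856 and 1979.7 CPM in Hdac2-deficient libraries. Both mutants were above control in every library and overlapped with each other. Mttp rose by 0.81 ± 0.05 (log2) after loss of Hdac1 and 0.83 ± 0.03 after loss of Hdac2 (adjusted p = 4.8e-11 and 1.6e-15, edgeR). Mttp shares 457 exon bases with Trmt10a on the other strand, which had 245 to 423 counts per library, or 0.627% to 1.313% of the Mttp count.

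Mogat2 and Dgat1 code for consecutive enzymes of triglyceride synthesis. Mogat2 (ENSMUSG00000052396, chr7:99219084-99238619, minus strand) was at 155, 145, 151 and 154 CPM in control, 241, 229, 225 and 248 CPM in Hdac1-deficient and 222, 227, 224 and 234 CPM in Hdac2-deficient libraries. It rose by 0.65 ± 0.04 and 0.59 ± 0.03 on the log2 scale (adjusted p = 3.3e-12 and 3.9e-13, edgeR). Dgat1 (ENSMUSG00000022555, chr15:76502015-76511953, minus strand) was at 279, 260, 269 and 278 CPM in control, 425, 410.2, 419 and 468 CPM in Hdac1-deficient and 491, 487, 489 and 522 CPM in Hdac2-deficient libraries. Here the Hdac2-deficient libraries were the highest, without overlap between the 3 groups. For Dgat1, the log2 fold change was 0.68 ± 0.04 after loss of Hdac1 and 0.88 ± 0.03 after loss of Hdac2 (adjusted p = 7.2e-12 and 1.2e-15, edgeR).

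Fabp1 and Fabp2 code for the liver and intestinal forms of fatty acid binding protein, both made by enterocytes. Fabp1 (ENSMUSG00000054422, chr6:71199827-71205023, plus strand) was at 1869, 1546, 1589.5 and 1788 CPM in control, 2552, 2529, 2463 and 2675 CPM in Hdac1-deficient and 2512, 2305, 2290 and 2483 CPM in Hdac2-deficient libraries. Fabp2 (ENSMUSG00000023057, chr3:122895072-122899506, plus strand) was at 401, 351, 350.1 and 394 CPM in control, 489, 514, 492 and 511 CPM in Hdac1-deficient and 529, 463, 455 and 475 CPM in Hdac2-deficient libraries. For both genes the mutants lay above control in every library and overlapped with each other. The log2 fold change of Fabp1 was 0.60 ± 0.05 after loss of Hdac1 and 0.51 ± 0.06 after loss of Hdac2 (adjusted p = 2.0e-08 and 9.6e-06, edgeR), and that of Fabp2 was 0.44 ± 0.04 and 0.37 ± 0.06 (adjusted p = 2.8e-08 and 1.1e-04, edgeR).

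**Figure D2:**
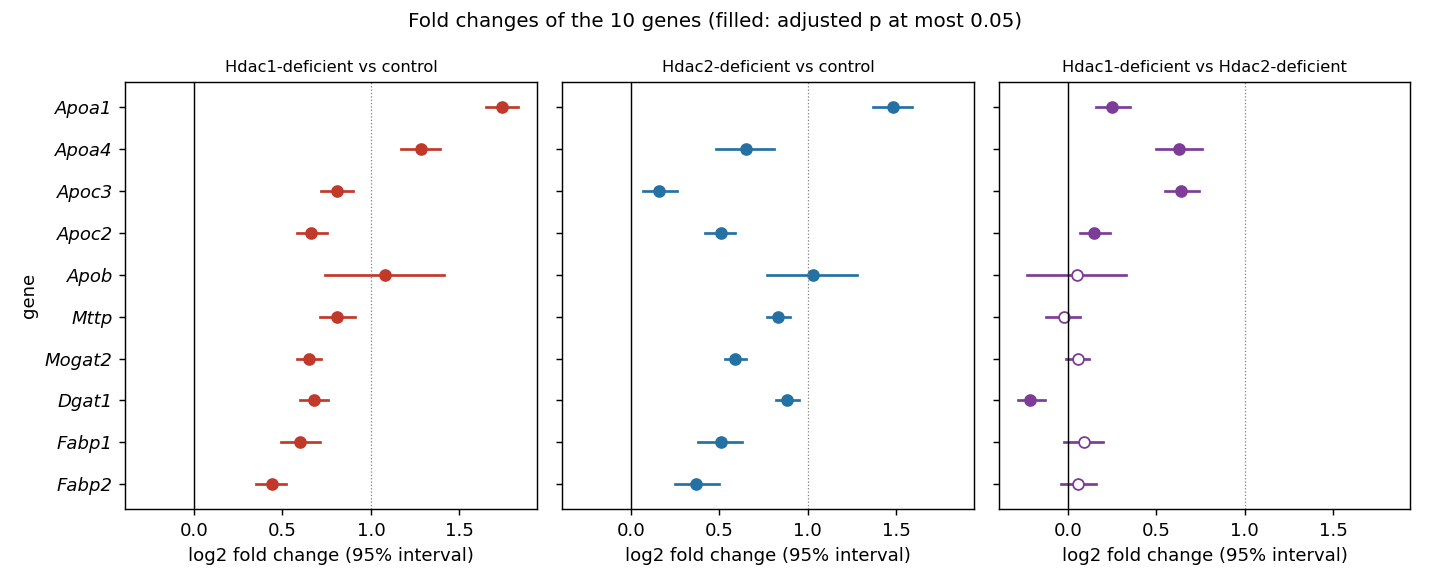
Log2 fold changes of the 10 genes with 95% intervals in the 3 comparisons; filled points have an adjusted p of at most 0.05 and the dotted line marks 2-fold. Apoa1 has the largest increase in both mutants (1.74 and 1.48), and Apoa4 (0.63) and Apoc3 (0.64) stand apart in the direct comparison of the mutants.

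The mutants were compared directly in 1 fit of all 12 libraries. Of the 10 genes, 4 had more RNA after loss of Hdac1 than after loss of Hdac2 (22.3% of 14510 tested genes) and 1 was lower (23.7%), with 0 past 2-fold in either direction (5.62%). Apoc3 differed by 0.64 ± 0.05 on the log2 scale (adjusted p = 4.0e-10, edgeR), Apoa4 by 0.63 ± 0.06 (adjusted p = 3.4e-07), Apoa1 by 0.25 ± 0.05 (adjusted p = 1.1e-04) and Apoc2 by 0.15 ± 0.04 (adjusted p = 0.0034). Dgat1 was lower in Hdac1-deficient enteroids, by -0.21 ± 0.04 (adjusted p = 4.6e-05, edgeR). For the remaining 5 no difference passed the test, and the 95% intervals bounded it from -0.23 to 0.33 for Apob, -0.12 to 0.07 for Mttp, -0.02 to 0.20 for Fabp1, -0.04 to 0.16 for Fabp2 and -0.01 to 0.12 for Mogat2. The 3 genes of the chromosome 9 cluster and Apoc2 thus made up the 4 that were higher in Hdac1-deficient enteroids.

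Ratios of counts between 2 genes within the same library do not depend on the scaling of that library. The log2 ratio of Apoa4 to Apoa1 was 1.48 ± 0.04 in control enteroids, 1.02 ± 0.07 after loss of Hdac1 and 0.65 ± 0.08 after loss of Hdac2 (SD, n = 4). That of Apoc3 to Apoa1 was -2.30 ± 0.01, -3.23 ± 0.10 and -3.61 ± 0.06 in the same order of groups. Within the cluster, therefore, Apoa1 gained over both neighbours, and more so in Hdac2-deficient than in Hdac1-deficient enteroids. The groups did not overlap in any of these 6 comparisons, and each reached p = 0.0286, the smallest p that 4 against 4 libraries allow (exact two-sided permutation test, adjusted p = 0.0429 over 15 tests). The log2 ratio of Mogat2 to Dgat1 was -0.84 ± 0.01 in control, -0.87 ± 0.05 without Hdac1 and -1.13 ± 0.02 without Hdac2. It was lower in Hdac2-deficient enteroids than in either other group (adjusted p = 0.0429 for both, exact permutation test), and its difference of -0.03 between Hdac1-deficient enteroids and control did not pass (adjusted p = 0.398). The log2 ratio of Fabp2 to Fabp1 was -2.18 ± 0.03 in control and lower by -0.17 in Hdac1-deficient and by -0.14 in Hdac2-deficient enteroids (adjusted p = 0.0429 for both, exact permutation test). The log2 ratio of Mttp to Apob was 0.60 ± 0.19 in control, 0.33 ± 0.11 without Hdac1 and 0.40 ± 0.08 without Hdac2, and no difference between groups passed (adjusted p of 0.0714, 0.0714 and 0.396, exact permutation test).

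**Figure D3:**
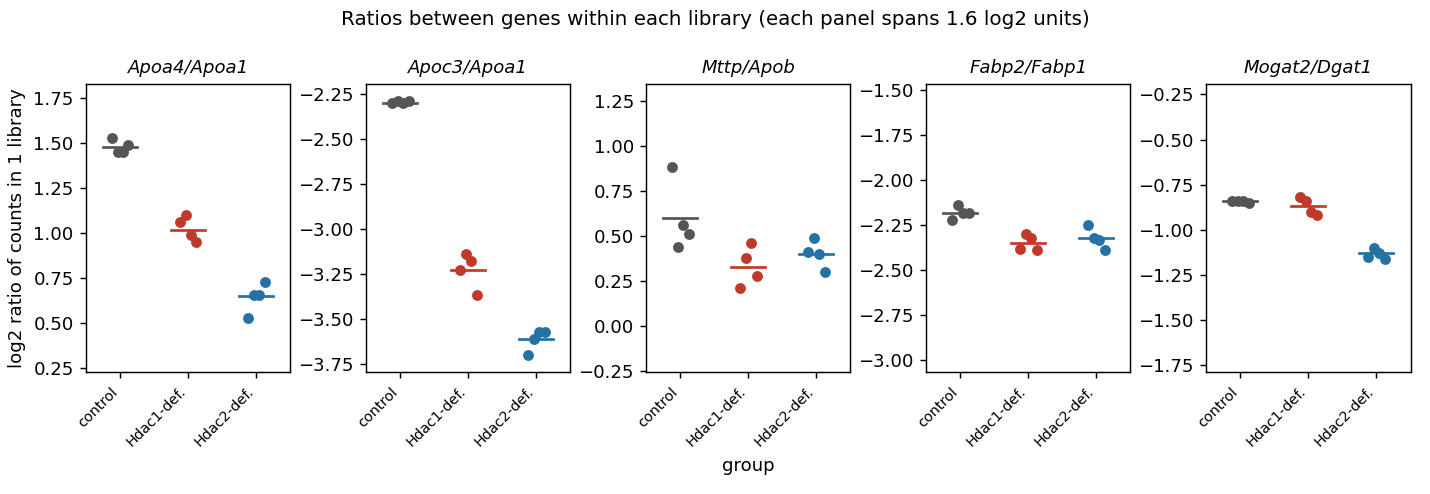
Log2 ratio of the counts of 2 genes in each library, by group, with a line at each group mean; the vertical axes start at different values and span the same range. Apoa4/Apoa1 and Apoc3/Apoa1 step down from control (1.48 and -2.30) to Hdac1-deficient (1.02 and -3.23) to Hdac2-deficient enteroids (0.65 and -3.61).

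The chromosome 9 cluster was set beside its neighbours. Of the other 8 tested genes of the list (Cep164, Rnf214, Pcsk7, Sidt2, Pafah1b2 and Sik3 on one side, Zpr1 and Bud13 on the other), 7 rose and 1 fell in Hdac1-deficient enteroids, their log2 values running from -0.26 for Bud13 to 0.54 for Sidt2. In Hdac2-deficient enteroids 4 rose, 2 fell (Bud13, -0.17, and Cep164, -0.16) and 2 did not pass, within -0.17 to 0.48. Without Hdac2-deficient replicate 1 the number that fell there was 1. Of all tested genes, 32.7% rose and 31.9% fell in Hdac1-deficient enteroids, and 31.4% rose and 30.9% fell in Hdac2-deficient enteroids. Sik3, whose annotated end lies 4385 bp before Apoa1, changed by 0.16 and 0.13, and Zpr1, on the far side of Apoa5, rose by 0.13 in Hdac1-deficient enteroids and had a log2 value of 0.04 (not past the test) in Hdac2-deficient enteroids. In Hdac1-deficient enteroids Apoa1, Apoc3 and Apoa4 (1.74, 0.81 and 1.28) thus lay above all 8 neighbours, while in Hdac2-deficient enteroids Apoc3 (0.16) lay within their range. Apoa5, the fourth apolipoprotein gene of the cluster, was at the limit of detection and was not tested.

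**Figure D4:**
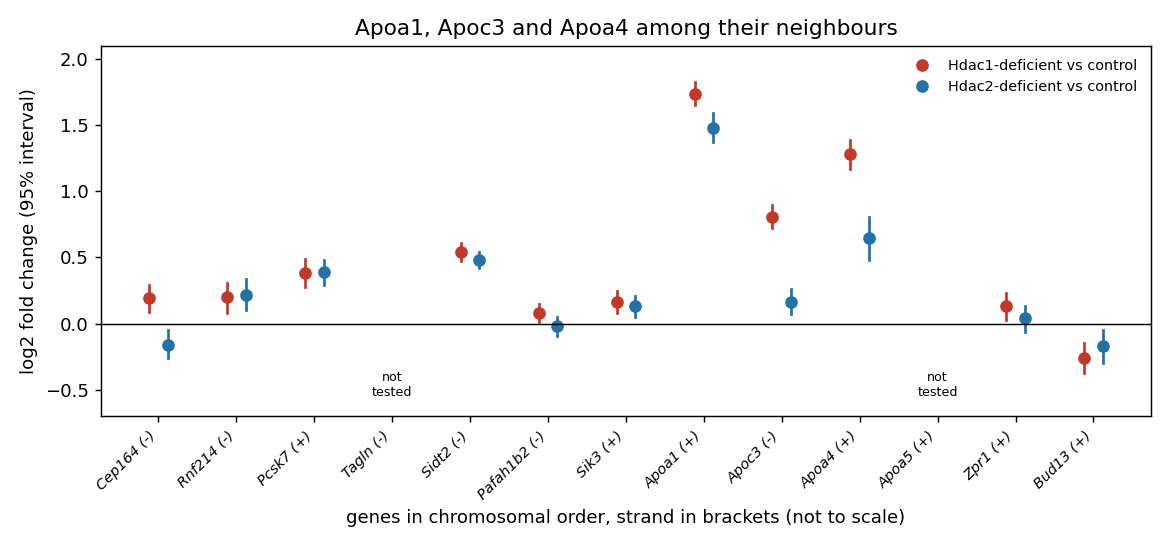
Log2 fold changes with 95% intervals of 13 genes in their order along chromosome 9, in Hdac1-deficient and Hdac2-deficient enteroids against control; Tagln and Apoa5 were not tested. Values of Apoa1 (1.74 and 1.48) and Apoa4 (1.28 and 0.65) lie above those of the 8 tested neighbours outside the 10 genes. Those neighbours stay between -0.26 and 0.54. In Hdac2-deficient enteroids the interval of Apoa4 (0.48 to 0.81) overlaps that of Sidt2 (0.42 to 0.54).

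Apoc2 lies in the Apoe cluster on chromosome 7. The other 8 tested genes of that list changed within -0.18 to 0.84 in Hdac1-deficient and -0.13 to 0.71 in Hdac2-deficient enteroids, with 7 higher and 1 lower (Tomm40, -0.18 and -0.13) in each. For this list and the next, all tested genes give the background. Of these, 32.7% and 31.4% rose and 31.9% and 30.9% fell in the same order of mutants. Apoe itself, which codes for a remnant particle ligand, was low. It rose from 2.33 CPM to 4.12 CPM after loss of Hdac1 and to 2.95 CPM after loss of Hdac2, by 0.84 ± 0.14 and 0.35 ± 0.14 on the log2 scale (adjusted p = 2.3e-05 and 0.039, edgeR). Clptm1, next to Apoc2, rose by 0.23 in both mutants. Bcl3 and Relb, of the NF-kB pathway, rose by 0.24 and 0.18 in Hdac1-deficient and by 0.71 and 0.30 in Hdac2-deficient enteroids. Bcam, Clasrp and Cblc rose by 0.10 to 0.42 in Hdac1-deficient enteroids. Of 8 other tested apolipoprotein genes, 4 rose and 2 fell in Hdac1-deficient, and 5 rose and 1 fell in Hdac2-deficient enteroids. These counts were not stable: 1 fell in the former without Hdac1-deficient replicate 1, and 0 fell in the latter without Hdac2-deficient replicate 3. In Hdac2-deficient enteroids 3 rose without Hdac2-deficient replicate 2, with DESeq2 or with library size alone. The number that rose there was 3 to 4 whenever 1 library was left out, and 3 to 7 under the other settings. Apool, and in Hdac1-deficient enteroids also Apoa2 (-0.82), were the genes that fell. Apol9a had the largest change, by 2.5 and 2.78 on the log2 scale, at only 0.0864 CPM in control and 0.512 and 0.635 CPM in the mutants. Clu (apolipoprotein J) rose from 28.0 to 92.8 and 118 CPM, by 1.74 and 2.08 on the log2 scale, and Apol7a from 11.1 to 19.8 and 31 CPM, by 0.85 and 1.48.

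Genes of chylomicron packaging and secretion were mostly higher in both mutants. Of 20 such genes, 17 rose and 1 fell in Hdac1-deficient enteroids (median log2 change 0.34), and 18 rose and 1 fell in Hdac2-deficient enteroids, with a median of 0.32. Among all tested genes 32.7% and 31.4% rose, and 31.9% and 30.9% fell. Sec24d, a COPII coat subunit, rose by 0.50 and 0.67, and Tm6sf2, needed for lipoprotein lipidation, by 0.44 and 0.65. Pla2g12b rose by 1.09 ± 0.06 in Hdac1-deficient and by 0.41 ± 0.06 without Hdac2, a difference of 0.68 ± 0.05 between the mutants (adjusted p = 9.6e-11, edgeR). Vti1a, a SNARE of vesicle fusion, was the 1 gene that fell, by -0.99 and -0.65.

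Triglyceride synthesis and lipid droplet genes were split. Of 22 tested, 10 rose and 9 fell in Hdac1-deficient enteroids (median 0.07), and 14 rose and 7 fell in Hdac2-deficient enteroids (median 0.20). Over all tested genes 32.7% rose and 31.9% fell in the former, and 31.4% rose and 30.9% fell in the latter. The 7 of 22 that fell in Hdac2-deficient enteroids lie near this share. Dgat2, the second diacylglycerol acyltransferase gene, rose by 0.93 and 0.73. Soat1, a cholesterol esterification enzyme gene, fell by -0.85 and -0.64, and Acsl4, an acyl-CoA synthetase gene, fell by -0.96 after loss of Hdac1 and -0.14 after loss of Hdac2. Mgll, for monoglyceride lipase, fell by -1.0 and -0.65 from only 0.721 CPM in control. Among 14 tested genes of fatty acid and sterol uptake and binding, 8 rose and 4 fell in Hdac1-deficient, and 11 rose and 1 fell in Hdac2-deficient enteroids (2 fell without control replicate 2 or 3, or with library size alone). Slc27a2 and Slc27a4, for fatty acid transport proteins, rose by 1.72 and 1.14 in Hdac1-deficient and by 1.08 and 0.73 in Hdac2-deficient enteroids. Cd36, for a fatty acid translocase, rose by 0.85 and 1.17, and Lrp1, for a receptor of remnant particles, by 1.10 and 0.93.

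Apob mRNA is edited in the mouse intestine to give the short apolipoprotein B48. Apobec1, for the editing deaminase, rose from 15.1 to 22.8 CPM in Hdac1-deficient (log2 fold change 0.60 ± 0.06, adjusted p = 6.5e-08, edgeR) and to 21.4 CPM in Hdac2-deficient enteroids (0.51 ± 0.06, adjusted p = 5.5e-07). Its cofactor genes differed: Rbm47 rose by 0.13 and 0.37, while A1cf had a log2 value of 0.00 (not past the test) in Hdac1-deficient and rose by 0.17 in Hdac2-deficient enteroids. Syncrip (-0.22 and -0.26), Hnrnpab (-0.24 and -0.21) and Khsrp (-0.49 and -0.23) fell in both mutants, Dnajb11 rose by 0.30 and 0.32, and Celf2, at 1.81 CPM in control, had 0.28 (not past the test) and 0.43. The share of edited Apob mRNA cannot be read from gene counts.

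Of 31 tested genes for transcriptional regulators of apolipoprotein genes, 16 rose and 5 fell in Hdac1-deficient and 16 rose and 3 fell in Hdac2-deficient enteroids, with medians of 0.13 and 0.10, where 32.7% and 31.4% of all tested genes rose and 31.9% and 30.9% fell. Nr1h4, for the bile acid receptor FXR, rose by 0.53 and 0.74. Nr0b2, for its target repressor SHP, rose by 0.98 in Hdac1-deficient and fell by -2.04 in Hdac2-deficient enteroids from a low level of 2.19 CPM, a difference of 3.02 ± 0.20 between the mutants (adjusted p = 1.3e-12, edgeR). Pparg fell by -1.01 in Hdac1-deficient and rose by 0.10 in Hdac2-deficient enteroids. Ppargc1a, for a coactivator, had 0.09 (not past the test) in Hdac1-deficient and rose by 1.05 in Hdac2-deficient enteroids.

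Most markers of enterocytes rose as the 10 genes did, and most markers of crypt stem cells fell. Enterocyte markers rose in 21 of 22 cases in Hdac1-deficient and 22 of 22 in Hdac2-deficient enteroids, with medians of 0.91 and 0.71, and their summed level was 8173 to 8616 CPM in control libraries, 14051 to 16836 CPM without Hdac1 and 12793 to 14127 CPM without Hdac2. Lct, for lactase, rose by 2.86 and 2.03, and Mep1a, for a meprin, by 2.21 and 1.59. Of 10 villus tip markers, 7 rose and 3 fell in Hdac1-deficient and 9 rose in Hdac2-deficient enteroids. Crypt stem cell markers fell in 9 and 11 of 12 cases and rose in 1 (Tnfrsf19), with a sum of 5249.9 to 5372 CPM in control libraries, 3186 to 3703 CPM without Hdac1 and 2922 to 3159 CPM without Hdac2, and Olfm4 fell by -0.82 and -1.23. Of 10 goblet cell markers, 4 rose and 2 fell in Hdac1-deficient enteroids (median -0.04), and 8 rose and 0 fell in Hdac2-deficient enteroids (median 0.43). Paneth cell markers rose in 4 and fell in 1 of 9 cases without Hdac1 (median 0.06), and rose in 6 and fell in 0 without Hdac2 (median 0.32). Among 12 enteroendocrine markers, 7 rose and 1 fell without Hdac1 (median 0.16), and 6 rose and 3 fell without Hdac2 (median 0.11). Over all tested genes 32.7% and 31.4% rose and 31.9% and 30.9% fell, in the same order of mutants. The 4 of 10 goblet and 4 of 9 Paneth cell markers that rose in Hdac1-deficient enteroids lie near these shares. So do the 3 of 10 villus tip markers that fell there and the 3 of 12 enteroendocrine markers that fell without Hdac2. Hepatocyte markers, which liver shares with several of the 10 genes, summed to 2.41 to 3.82 CPM in control libraries, 5.45 to 7.0 CPM without Hdac1 and 4.8 to 5.53 CPM without Hdac2. Of those tested, 3 of 4 rose without Hdac1 (median 1.62) and 2 of 3 without Hdac2 (median 0.56), with Alb, for albumin, higher by 2.60 and 1.74 at no more than 1.42 CPM in any library, and Fgb, Fga, Ahsg, Tat, Cyp7a1 and Serpina1a were at 0 or not in both tables. The part of the enterocyte, crypt and hepatocyte markers in the change of the 10 genes was not tested.

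**Figure D5:**
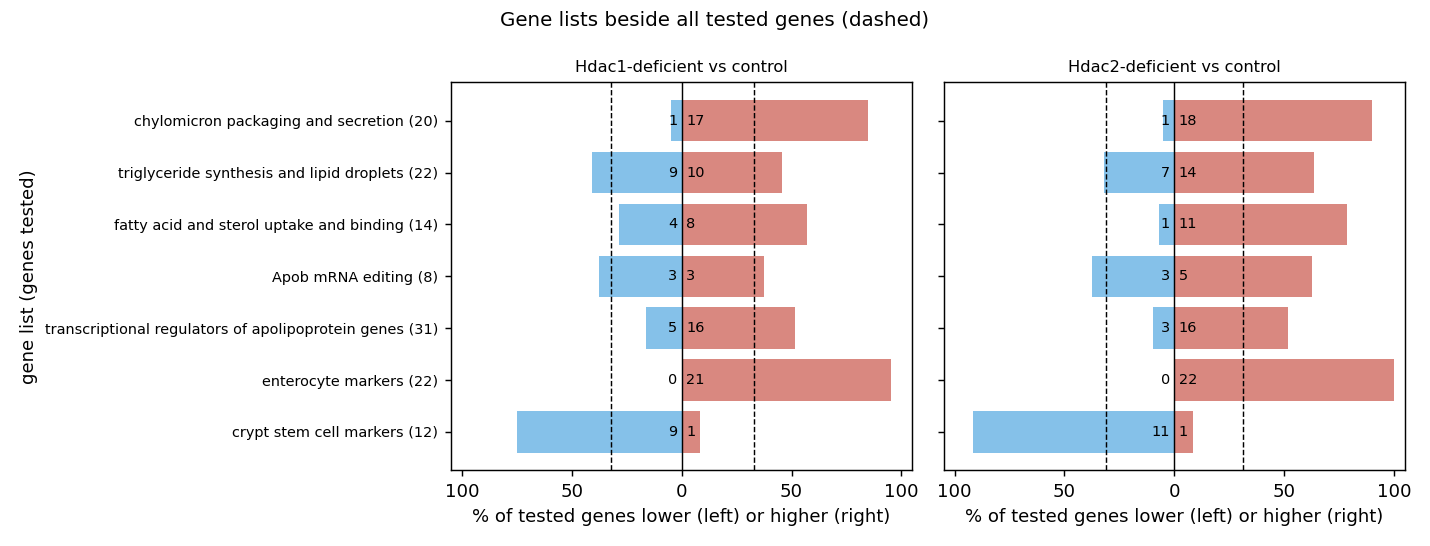
Share of the tested genes of 7 lists that were lower (left bars) or higher (right bars) in each mutant with an adjusted p no larger than 0.05, with the counts printed; dashed lines mark the share of all tested genes. Enterocyte markers (21 and 22 of 22) and chylomicron packaging genes (17 and 18 of 20) are mostly higher, and crypt stem cell markers (9 and 11 of 12) mostly lower.

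Among 9672 genes whose mean log2 CPM was 3 or more, the pattern most like that of Apoa4 over the 12 libraries was that of Spink1 (Pearson r = 0.995), Smim24 (0.993) and 1700019G17Rik (0.992). For Apob it was that of Zzef1 (0.993), Heatr5a (0.991) and Dopey2 (0.988), with 16450, 20676 and 9890 bases of exon. The points share libraries and their depth, and the 3 groups differ in level, so these values are descriptions. Within groups (deviations from the group means, 12 libraries), Apoc2 and Fabp1 had r = 0.96 and Apoa1 and Fabp1 0.94, while Apob had r = -0.04 with Apoa1 and 0.73 with Mttp.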

How the data were processed

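Paired 100-nucleotide reads had been mapped to GRCm38 with STAR (2.4.0f1 in the submitters' processing notes). The authors deposited 1 table per mutant of whole-number read counts, listing genes that reach 10 counts summed over 8 libraries; the counting program and its strand setting are not given in the sources used here. Other deposited columns (a normalized score, log2 fold changes, log2 CPM and p-values of DESeq and edgeR, all by the authors) were not used. The 4 control columns were identical in both tables. Libraries were grouped by title.

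Counts were tested with edgeR 4.0.16 (R 4.3.3; quasi-likelihood F test, robust, TMM, filterByExpr, Benjamini-Hochberg adjustment over all tested genes), each mutant against control over 8 libraries and the mutants against each other over 12. CPM used TMM factors of the 12 libraries. Depth was 20693200 to 30658628 counts. The fit was tested on simulated counts.

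The 10 genes and the lists were chosen with earlier results of these data known. Named are the 10 genes, the tested genes of both clusters and of the editing list, up to 4 genes past the test with the largest change from each other list, the 3 genes most like Apoa4 and Apob, and Hdac1 and Hdac2. Alternatives were DESeq2 1.42.0, other scalings, no filter, other libraries in the fit, a replicate block and each library left out.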

Additional observations from a re-analysis of the deposited data

Results flagged for a closer look

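Dgat1 in Hdac2-deficient replicate 4 stood apart from its group, at 522 CPM against 487 to 491 CPM in the other 3 libraries. The gap to the nearest library was 0.872 of the group's range, above Dixon's 95% critical value for 4 samples. It was the only one past that value among 45 groups of 4 libraries tested, and chance passes it in about 5% of groups.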

How the results depend on the processing

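All 10 genes remained higher than control in both mutants under each alternative run. The count above 2-fold in Hdac2-deficient enteroids went from 2 to 1 with library size alone and ranged from 1 to 2 when each library was left out in turn. In the direct comparison of the mutants, 4 values that had not passed the test changed sign: Apob to -0.01 and -0.02 without Hdac1-deficient replicate 1 or 4 (range -0.02 to 0.13 when each library was left out in turn), and Mttp to 0.00 with library size alone and to 0.02 without Hdac1-deficient replicate 3 (range -0.08 to 0.02). A difference passed that had not before for Fabp1 (0.12 with library size alone, 0.09 in the 8 mutant libraries alone and 0.09 with the replicate block), Fabp2 (0.11 without Hdac2-deficient replicate 1) and Mogat2 (0.08 with library size alone). The cause was not tested. Of 1568 list counts under alternatives, 15 moved by over 1.5 times.

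Same-numbered libraries of different groups did not deviate together (correlations from -0.06 to 0.11), so the numbers were not taken as pairs, and the replicate block left 10 of 10 genes higher in both mutants. Counting depth was not limiting for the 10 genes, whereas genes at a few counts, such as Apoa5, could not be assessed.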
